A study of Mus musculus with 16 samples.

Results

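The cytochrome P450 genes of families 1, 2 and 3 were followed in mouse liver with and without the autophagy gene Atg7 and the transcription factor Nrf2 (product of the gene Nfe2l2). The members were all genes whose name on the array begins with Cyp1, Cyp2 or Cyp3 followed by a letter and a number, leaving out the Cyp2a genes. This gave 44 of the 28632 gene names on the array, on 65 of 41174 probes, in 14 subfamilies. The largest subfamily was Cyp2c with 11 genes. Cyp2d had 7 genes, Cyp3a had 6, and Cyp2b and Cyp2j had 5 each. Probes detected (well above background by the scanner software) on 4 or more of 24 channels were used, and the brightest such probe represented its gene. This left 42 members. Cyp2b23 and Cyp2c66 had no such probe and are not described further.

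Liver RNA of a knockout and of a partner was hybridised together on 2-colour arrays, and each experiment was an array and its dye swap, averaged to 1 value. Experiments 1 and 4 set Nrf2–/– mice (Nrf2 KO, null in every cell) against wild type, and experiments 2 and 5 set Atg7F/F:Mx1-Cre mice (Atg7 cKO) against wild type. Experiments 3 and 6 set Atg7F/F:Mx1-Cre:Nrf2-/- mice (the double knockout) against wild type, and in experiments 7 and 8 the double knockout was hybridised with Atg7 cKO itself, so that each comparison had n = 2. Mice of both Atg7 genotypes and control mice received pIpC at 8 weeks of age and livers were taken 4 weeks later per the series' design text, which does not name the Nrf2–/– mice. The labels of all arrays, those of Nrf2 KO included, speak of a pIpC treatment of 4 weeks. Cre was driven by the Mx1 promoter, which pIpC switches on in hepatocytes and also in other cells such as macrophages, so Atg7 was not removed in hepatocytes alone. The labels number no animals, so that p-values measure the spread between these experiments, part of which may be technical.

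Cytochromes P450 of these families sit in the endoplasmic reticulum, carry haem, and insert oxygen into drugs, toxins, steroids and fatty acids with electrons from the reductase Por and cytochrome b5. Cyp1 genes are classical targets of the aryl hydrocarbon receptor (Ahr), Cyp2b and Cyp2c genes of the constitutive androstane receptor (Nr1i3) and Cyp3a genes of the pregnane X receptor (Nr1i2). Most are made in hepatocytes around the central vein, and in mice many Cyp2b, Cyp2c, Cyp2d and Cyp3a genes are made at different levels in males and females under the control of growth hormone.

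The design checks behind these comparisons were as follows. Median signals were 41.82 to 55.63 over arrays and channels, against median local backgrounds of 34.5 to 36.5. Nfe2l2 had log2 ratios of -3.78 and -3.97 in experiments 1 and 4 and of -3.31 and -4.10 in experiments 3 and 6. Atg7 had log2 ratios of -0.79 and -0.82 in experiments 2 and 5 and of -0.73 and -0.73 in experiments 3 and 6. Where these probes lie relative to the deleted parts is not given in the sources used here. The experiments fell into 2 sets by sex-linked transcripts: in both channels the Y-linked Ddx3y and Eif2s3y were bright and Xist was near background in experiments 1, 2 and 3, and the reverse held in experiments 4, 5 and 6. The labels give no sex. Each comparison with wild type therefore held 1 experiment of each set, and its spread includes any difference between the sets. Per the file headers, experiments 1 and 2 lay on slide 1, experiments 3 and 4 on slide 2 and experiments 5 and 6 on slide 3. The 2 experiments of each comparison with wild type thus also differed in slide. Of the hepatocyte markers, Alb, Ttr, Apoa1, Cps1 and Fabp1 were well above background in all 24 channels.

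The Cyp1a pair differed between Atg7 cKO and the double knockout and the pair Cyp2b9 and Cyp2b13 between sets of experiments, and their promoters (300 bases, most of them before the transcription start, RefSeq, GRCm38.p6, 5′ to 3′) are given here. In the Cyp1a sequences, capitals mark matches to GCGTG, the core of the xenobiotic response element that Ahr binds, searched on both strands. In the Cyp2b sequences, capitals mark the bases at which the promoters differ.
Cyp1a1, chr9:57697363-57697662, plus strand: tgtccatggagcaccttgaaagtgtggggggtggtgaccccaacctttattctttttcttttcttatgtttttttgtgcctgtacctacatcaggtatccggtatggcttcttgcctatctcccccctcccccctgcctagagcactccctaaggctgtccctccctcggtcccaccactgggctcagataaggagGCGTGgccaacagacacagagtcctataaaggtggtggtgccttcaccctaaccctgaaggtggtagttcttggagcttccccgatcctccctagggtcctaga
Cyp1a2, chr9:57683606-57683905, minus strand: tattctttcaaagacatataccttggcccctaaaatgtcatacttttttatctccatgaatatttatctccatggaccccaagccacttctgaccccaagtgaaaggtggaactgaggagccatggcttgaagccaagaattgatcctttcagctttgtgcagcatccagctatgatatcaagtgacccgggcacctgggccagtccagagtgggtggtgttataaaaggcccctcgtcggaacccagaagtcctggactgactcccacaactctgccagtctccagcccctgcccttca
Cyp2b9, chr7:26173159-26173458, plus strand: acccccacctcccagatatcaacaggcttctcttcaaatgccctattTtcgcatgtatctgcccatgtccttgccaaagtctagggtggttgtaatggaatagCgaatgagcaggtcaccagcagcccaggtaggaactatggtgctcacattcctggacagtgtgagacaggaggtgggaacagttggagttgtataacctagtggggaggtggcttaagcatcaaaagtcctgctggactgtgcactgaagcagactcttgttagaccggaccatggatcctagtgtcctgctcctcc
Cyp2b13, chr7:26061245-26061544, plus strand: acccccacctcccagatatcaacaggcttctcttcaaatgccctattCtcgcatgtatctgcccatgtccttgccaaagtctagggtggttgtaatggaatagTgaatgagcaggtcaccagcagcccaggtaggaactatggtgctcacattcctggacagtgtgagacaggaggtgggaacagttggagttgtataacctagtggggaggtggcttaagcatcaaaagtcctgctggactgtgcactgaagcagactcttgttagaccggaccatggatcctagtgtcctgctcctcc
The Cyp2b9 and Cyp2b13 promoters were 99.3% identical and differed at 2 of 300 bases, T48C and C104T, counted from the 5′ end of the window with Cyp2b9 as the reference. Cyp3a41a and Cyp3a44 were the only other pair of at least 90% identity among the 630 pairs of member promoters, at 92.3%. GCGTG lay in the promoters of 7 of the 36 members with a promoter in the table, and in 32.4% of 32817 mouse promoters of this length. The Cyp1a1 match began at position -54 from the start, and the Cyp1a2 window held none. The core of the antioxidant response element bound by Nrf2 (TGACNNNGC, both strands) lay in 3 members, Cyp2c65, Cyp2c66 and Cyp2j6, against 12.4% of all promoters. The STAT element TTCNNNGAA, which reads the same on both strands, lay in 1 member, Cyp2j11, against 8.29% of all promoters. No member's window held matches to more than 1 of the 3 motifs. These windows say nothing of more distant sites.

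Near-identical family members limited what some probes could tell apart. A probe of 60 bases that listed another gene beside its own stood for 8 of the 42 members, namely Cyp2b9, Cyp2b13, Cyp2c40, Cyp2d9, Cyp2j13, Cyp3a11, Cyp3a25 and Cyp3a41a. The following probes belong to members described below and are shown because of the genes they share. The one shown for Cyp2c40 is its dimmer second probe. The Cyp2c40 values below come from a brighter probe that lists Cyp2c67, Cyp2c68 and Cyp2c69.
Cyp2b13, listing also Cyp2b9, Cyp2b10 and Cyp2b23: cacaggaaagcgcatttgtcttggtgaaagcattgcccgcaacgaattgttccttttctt
Cyp2c40, listing also Cyp2c68: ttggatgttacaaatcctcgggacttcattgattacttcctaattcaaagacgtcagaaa
Cyp3a11, listing also Cyp3a41a, Cyp3a41b and Cyp3a44: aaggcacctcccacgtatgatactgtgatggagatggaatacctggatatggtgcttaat
On build mm9 the positions of these probes were chr7:26873757-26880713, chr19:39861388-39877026 and chr5:146672058-146673925, so each crossed at least 1 exon junction. Values of these 8 members are to be read as those of a small group of paralogs.

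In Nrf2 KO hardly any gene was called, member or not. No member passed an adjusted p of 0.05 (limma, Benjamini-Hochberg over 16685 genes), against 0.012% of all genes, and 1 member, Cyp3a25, had an unadjusted p under 0.05 (2.38%, against 3.70% of all genes). Below 0 in both experiments were 38.1% of the members, against 23.9% of all genes. The median log2 ratio of the members was -0.02, beside 0.00 for all genes, and the members lay between -0.72 and 0.83. The upper end was Cyp2b9, a testosterone hydroxylase typical of female liver, at 1.49 in experiment 1 and 0.17 in experiment 4. The lower end was Cyp2c54, an arachidonate epoxygenase, at -0.45 and -0.98. Cyp2c37, an arachidonate hydroxylase, was at -0.46 and -0.49, closer together than either lay to 0. Cyp3a25, a testosterone and drug hydroxylase, was at -0.21 and -0.82.

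Many of the hepatic P450 genes fell without Atg7. In Atg7 cKO 25 of 42 members changed, against 39.4% of all genes. Of these, 21 fell, against 16.2% of all genes, and 4 rose, against 23.2%. The median member was at -0.97 and the median gene at 0.00. Of the 21, 16 were at least 2-fold lower. In the double knockout 21 of 42 members changed, against 37.1% of all genes. All 21 fell, against 15.9% of all genes, 12 of them at least 2-fold, and none rose, against 21.2%. The median member was at -0.83 there. The comparisons hold different arrays, but the labels do not say whether they share wild-type RNA, so no overlap of their lists is given. With median centring in place of loess, 7654 of 16685 genes were called in Atg7 cKO, against 6574 with loess. Of the members, 12 fell and 6 rose there, on a scale on which the median gene stood at 0.21. Without experiment 5, 11 fell and 3 rose. In bulk liver RNA, fewer hepatocytes and less RNA per hepatocyte cannot be told apart.

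**Figure D1:**
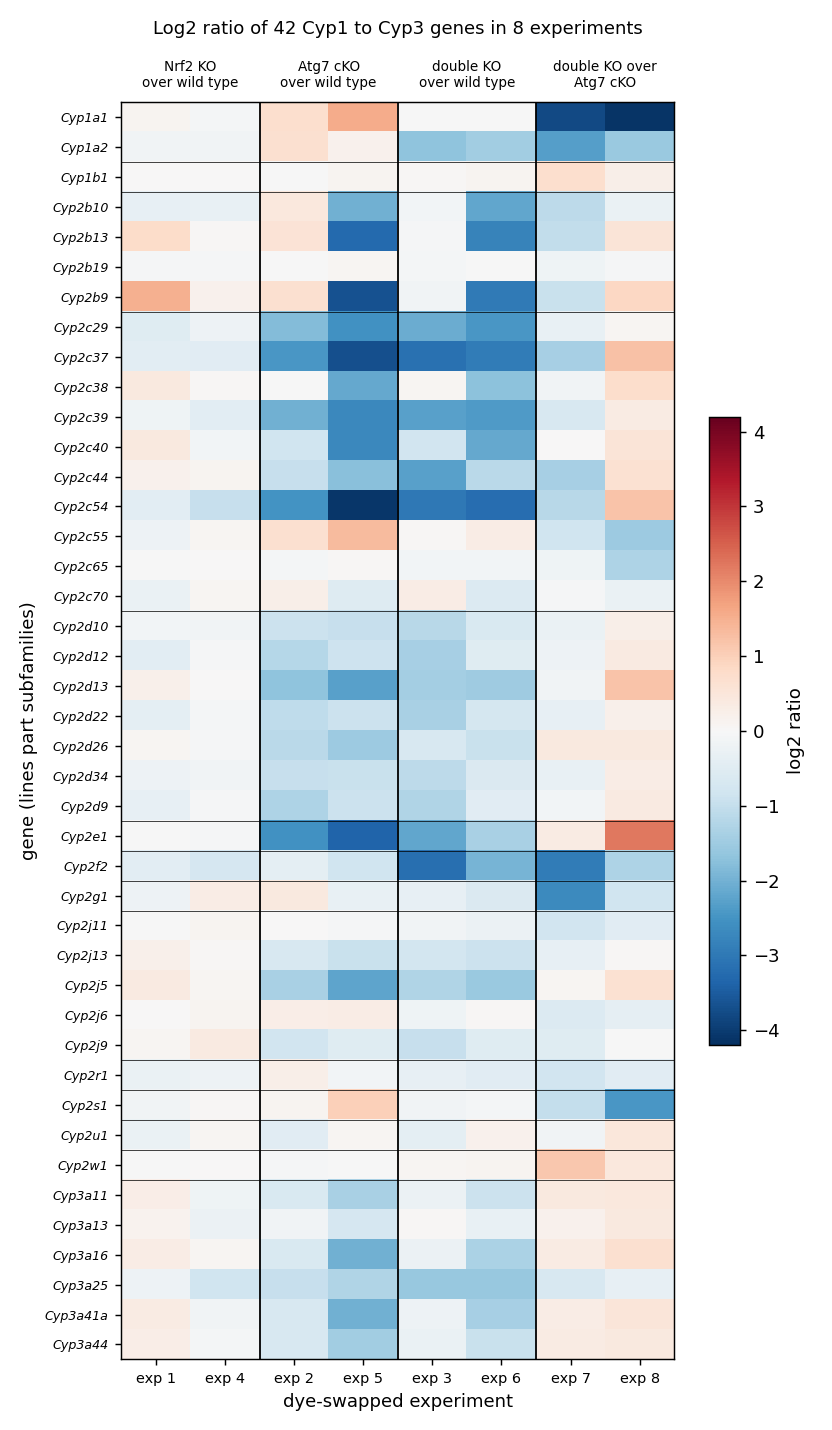
Log2 ratios of the 42 members (rows, parted by lines into subfamilies) in the 8 dye-swapped experiments (columns, grouped by comparison); blue is lower and red higher in the first-named genotype. Most Cyp2c genes and all Cyp2d, Cyp2e and Cyp3a genes are blue in Atg7 cKO, the Nrf2 KO columns are mostly pale, and Cyp2b9 and Cyp2b13 are dark blue in experiments 5 and 6.

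Markers of several liver cell types moved in the same arrays. Of 5 measured hepatocyte markers 4 fell in Atg7 cKO. The summed signal of the 5, dye swaps averaged, was 34684 and 37115, beside 48141 to 87671 in wild type over all 6 experiments. In the double knockout 4 of 5 fell as well, with sums of 28986 and 52350. Albumin fell by 1.41 on the log2 scale in either comparison. All 6 macrophage markers rose in both, with sums of 8633 to 12293 in Atg7 cKO and 17323 to 22672 in the double knockout, beside 1962 to 2569 in wild type. Of 6 stellate cell markers 4 rose in both, with sums of 3317 to 3800 in Atg7 cKO and 2927 to 3368 for the double knockout, beside 1277 to 1479. Of 5 cholangiocyte markers 2 rose in both (3520 to 3601 and 3890 to 4553, beside 800 to 1031), with Spp1 the larger. Of 4 measured neutrophil markers 2 rose in both (634 to 1293 and 2675 to 4555, beside 386 to 535). Of 4 measured lymphocyte markers none was called in Atg7 cKO and 1 rose in the double knockout (280 to 302 and 295 to 302, beside 283 to 333). Endothelial markers were mixed: of 5, 2 rose in Atg7 cKO, and 1 rose and 2 fell in the double knockout. Their sums were 1390 to 1469 and 882 to 1249, beside 1151 to 1329. The part of these markers in the P450 results was not tested. In Atg7 cKO the means of the 5 lowest members (Cyp2c29, Cyp2c37, Cyp2c39, Cyp2c54 and Cyp2e1) lay below those of all 5 hepatocyte markers. Cps1 was the lowest marker at -2.12, and the other members lay above it. The median member was at -0.97 and the median hepatocyte marker at -1.16. These differences from the markers were not tested.

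The arachidonate epoxygenases and drug hydroxylases of the Cyp2c subfamily showed the deepest falls. Of the 10 measured genes, 6 fell and 1 rose in Atg7 cKO (median -1.57), and 5 fell in the double knockout (median -1.58). Cyp2c54 stood at -2.51 and -4.07 in experiments 2 and 5 and at -3.02 and -3.21 in experiments 3 and 6. All 4 values lay far below its Nrf2 KO values, and its means were -3.29 (adjusted p = 0.00276) and -3.12 ± 0.14 (SD, n = 2; adjusted p = 0.0033). Cyp2c37, which makes hydroxylated arachidonate products, stood at -2.43 and -3.70 in Atg7 cKO and at -3.14 and -2.94 in the double knockout. Its means were -3.06 (adjusted p = 0.00178) and -3.04 (adjusted p = 0.00177), a fall of more than 8-fold in either genotype. Cyp2c29, a principal drug-metabolising Cyp2c of mouse liver, stood at -1.81 and -2.53 in Atg7 cKO and at -2.07 and -2.44 in the double knockout. It fell in both (adjusted p = 0.00163 and 0.00144), and the values of the 2 genotypes overlapped. Cyp2c39, a retinoic acid hydroxylase, stood at -2.02 and -2.72 in Atg7 cKO and at -2.28 and -2.37 in the double knockout (adjusted p = 0.0011 and 0.00101). Cyp2c44, an epoxygenase now named Cyp2c23, stood at -0.98 and -1.75 in Atg7 cKO and at -2.27 and -1.12 in the double knockout (adjusted p = 0.0215 and 0.0116). Its call in Atg7 cKO was lost without experiment 1, 4 or 5, and that in the double knockout without experiment 3. Cyp2c40, a female-typical arachidonate hydroxylase, fell in Atg7 cKO by 1.77 ± 1.33 (adjusted p = 0.0474), a call lost without experiment 1, 4 or 5. With median centring neither Cyp2c40 (-1.38) nor Cyp2c44 (-0.94) was called in Atg7 cKO. Cyp2c40 stood at -0.80 and -2.14 in the double knockout (adjusted p = 0.0813). Cyp2c70, which makes the muricholic bile acids of mice, had the brightest Cyp2c probe in wild type. It lay at 0.26 and 0.30 in experiments 2 and 3 and at -0.55 and -0.57 in experiments 5 and 6, and passed no test.

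Cyp2e1, the pericentral enzyme that oxidises ethanol and acetaminophen, fell in both genotypes without Atg7. It stood at -2.55 and -3.35 in Atg7 cKO, a mean of -2.95 ± 0.57 (adjusted p = 0.00152). With Nrf2 missing as well it stood at -2.19 and -1.37, a mean of -1.78 ± 0.58 (adjusted p = 0.00566), so that the values of the double knockout all lay above those of Atg7 cKO. The difference through wild type was 1.18 and did not pass, and the direct experiments gave 0.35 and 2.23 (adjusted p = 0.105). In Nrf2 KO it stood at -0.01 and -0.04. Of the pericentral members measured (Cyp2e1, Cyp1a2, Cyp2c29, Cyp2c37 and Cyp3a11), 4 fell and Cyp1a2 rose in Atg7 cKO, and 4 fell in the double knockout.

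All 7 Cyp2d genes, relatives of the human debrisoquine hydroxylase, fell in both genotypes. Their means lay between -1.99 and -0.94 in Atg7 cKO and between -1.46 and -0.80 in the double knockout, with medians of -1.03 and -0.89. Cyp2d26, with the brightest probe in wild type, stood at -1.14 and -1.53 in Atg7 cKO and at -0.67 and -0.94 in the double knockout (adjusted p = 0.00152 and 0.00566). Cyp2d13 stood at -1.70 and -2.29 in Atg7 cKO and at -1.41 and -1.50 in the double knockout (adjusted p = 0.00114 and 0.00218). Cyp2d9, a male-typical steroid hydroxylase, stood at -1.30 and -0.91 in Atg7 cKO (adjusted p = 0.0126) and at -1.27 and -0.47 in the double knockout (adjusted p = 0.027). Cyp2d12 stood at -1.20 and -0.86 in Atg7 cKO and at -1.38 and -0.50 in the double knockout (adjusted p = 0.021 and 0.0287). Cyp2d22 stood at -1.06 and -0.91 in Atg7 cKO and at -1.35 and -0.74 in the double knockout (adjusted p = 0.00825 and 0.00722). Falls of Cyp2d9, Cyp2d12 and Cyp2d22 in Atg7 cKO were lost without experiment 2 or without experiment 5. Those of Cyp2d9 and Cyp2d12 in the double knockout were lost without experiment 1, 3 or 4, and that of Cyp2d26 without experiment 6. With median centring Cyp2d12 was at -0.62 in Atg7 cKO and was not called.

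The Cyp2j subfamily, epoxygenases of arachidonic and other fatty acids, was split. Cyp2j5, abundant in kidney and liver, stood at -1.38 and -2.22 in Atg7 cKO and at -1.25 and -1.55 in the double knockout (adjusted p = 0.00313 and 0.00645). Its fall in the double knockout was lost without experiment 6. Cyp2j9 and Cyp2j13 also fell in both genotypes, by less than 2-fold. Cyp2j6 rose slightly in Atg7 cKO, at 0.29 and 0.31 (adjusted p = 0.0222), but its second probe stood at -0.11 and -0.19 there. Cyp2j11 stood at -0.15 and -0.24 in the double knockout (adjusted p = 0.0423) and at 0.01 and -0.06 in Atg7 cKO.

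The Cyp3a genes, the main drug and steroid hydroxylases of the family, had 4 of 6 members lower in Atg7 cKO and 1 of 6 lower in the double knockout, and no difference between these genotypes passed. Cyp3a25 fell in both, at -0.97 and -1.27 in Atg7 cKO (adjusted p = 0.0051) and at -1.59 and -1.60 in the double knockout (adjusted p = 0.00206). Cyp3a11, the principal inducible Cyp3a of mouse liver, stood at -0.65 and -1.36 in Atg7 cKO (adjusted p = 0.0254) and at -0.24 and -0.89 in the double knockout (adjusted p = 0.125). Cyp3a16, a fetal and female-typical form, stood at -0.65 and -2.03 in Atg7 cKO (adjusted p = 0.0449) and at -0.24 and -1.32 in the double knockout. Cyp3a44, another female-typical form, stood at -0.67 and -1.46 in Atg7 cKO (adjusted p = 0.023) and at -0.27 and -0.95 in the double knockout. In each of these the lower value was that of experiment 5 or 6, which shared a slide. The falls of Cyp3a11, Cyp3a16, Cyp3a25 and Cyp3a44 in Atg7 cKO were lost without experiment 5, and that of Cyp3a16 also without experiment 1 or 4. With median centring none of the 4 was called, at -0.63, -0.95, -0.72 and -0.68, and with the deposited ratios Cyp3a11 (-0.92) and Cyp3a16 (-1.32) were not called. Cyp3a41a, female-typical and with the brightest probe of the subfamily in wild type, stood at -0.68 and -2.01 in Atg7 cKO (adjusted p = 0.0517). A dimmer second probe of Cyp3a44 stood at -0.03 in experiment 2 and -4.48 in experiment 5.

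The Cyp1a genes and Cyp2c55 went the other way in Atg7 cKO, and Cyp1a2 turned in the double knockout. Cyp1a2, which oxidises caffeine and aromatic amines, stood at 0.68 and 0.19 in Atg7 cKO and rose by 0.44 ± 0.34 (adjusted p = 0.0428). It stood at -1.68 and -1.46 in the double knockout and fell by 1.57 ± 0.16 (adjusted p = 0.00119). In Nrf2 KO it stood at -0.13 and -0.15, so none of the double knockout values overlapped those of either single knockout. Its departure from additivity, the double knockout minus both single knockouts, was -1.86 (adjusted p = 0.0481), against 0.719% of all genes called and 0.587% called lower in that test. Compared by way of wild type, the double knockout was 4.01-fold lower than Atg7 cKO (adjusted p = 0.0113), where 4.96% of all genes were called, 3.22% lower and 1.74% higher. Cyp1a2 was the only member called in either of these tests. The rise in Atg7 cKO was 0.19 without experiment 2 (adjusted p = 0.212), and it and the interaction were lost without experiment 1, 2, 3, 4 or 6. Both were also lost with the deposited ratios, with no offset, with no filter on dim probes and with the slide as a block, the rise also with the mean of the kept probes and the interaction with median centring, so each was lost in 10 of 16 alternatives. The difference by way of wild type was lost without experiment 1, 3 or 4. A second probe of Cyp1a2 gave 0.74 and 0.13 in Atg7 cKO and -1.69 and -1.47 in the double knockout.

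Cyp1a1, the most inducible Ahr target, stood at 0.70 and 1.57 in Atg7 cKO and rose by 1.13 ± 0.62 (adjusted p = 0.0103). It was well above background in 4 of 4 Atg7 cKO channels and in 1 of 4 channels of their wild-type partners, so its size depended on the background correction. It was 3.52 with the deposited ratios and 2.65 with no offset. With both genes missing it stood at -0.03 and -0.01, detected on 2 of 4 double knockout channels and 0 of 4 wild-type channels. Cyp2c55, a hydroxylase of arachidonic acid induced through Nr1i3 and Nr1i2, stood at 0.68 and 1.32 in Atg7 cKO and rose (adjusted p = 0.00886). The double knockout gave 0.06 and 0.32 (adjusted p = 0.423), values below both Atg7 cKO values.

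Cyp2f2, a periportal enzyme that activates naphthalene, fell in the double knockout. It stood at -3.16 and -1.94 there, a mean of -2.55 ± 0.86 (adjusted p = 0.0031). In Atg7 cKO it stood at -0.41 and -0.84 (adjusted p = 0.148) and in Nrf2 KO at -0.43 and -0.70, so the double knockout values lay below all 4 others. The departure from additivity of -1.36 did not pass. Cyp2r1, a vitamin D hydroxylase, fell by 0.41 in the double knockout (adjusted p = 0.0234) and stood at 0.23 and -0.12 in Atg7 cKO. With median centring Cyp2r1 was at -0.10 there and was not called, nor was it without experiment 1, 3, 4 or 6.

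**Figure D2:**
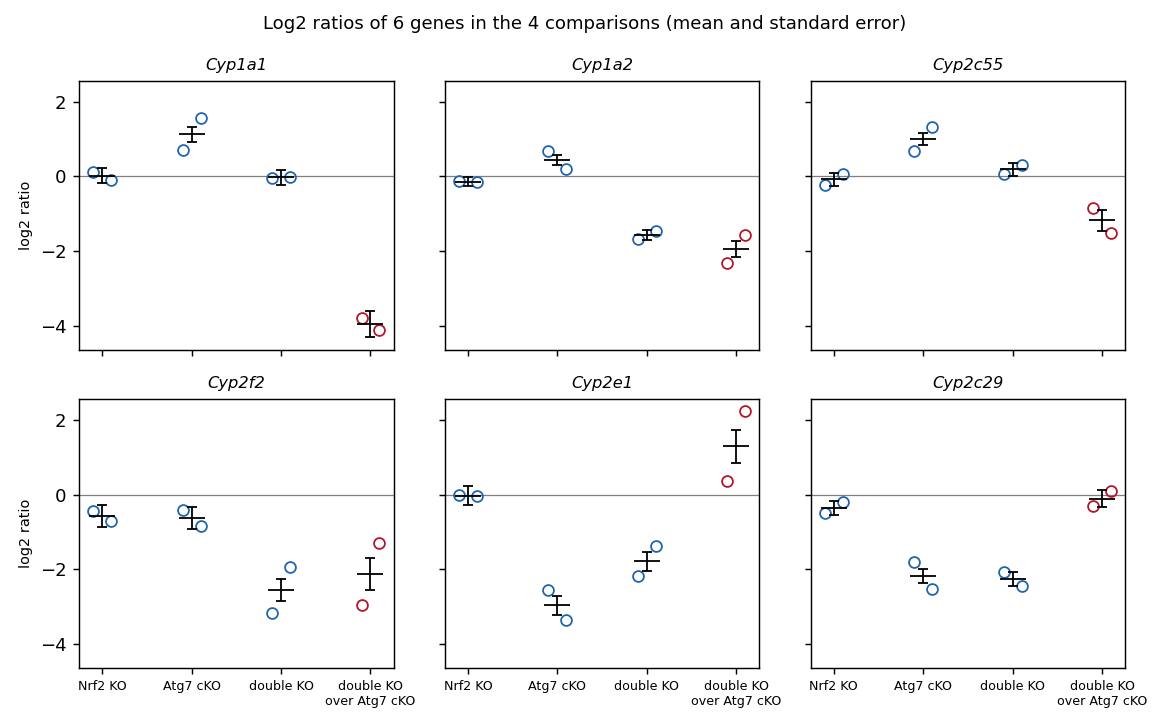
Log2 ratios of 6 members in the 4 comparisons; circles are the experiments (blue against wild type, red double knockout over Atg7 cKO from the deposited ratios) and black bars the fitted mean with its standard error. Cyp1a1, Cyp1a2 and Cyp2c55 lie above 0 in Atg7 cKO and below 0 in the direct comparison, Cyp2f2 is low where Atg7 and Nrf2 are both missing, and Cyp2c29 is low in both genotypes without Atg7.

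The direct hybridisations of the double knockout against Atg7 cKO tested the part of these changes that differed with Nrf2. They came from the deposited ratios, since no scanner file of these arrays was read, and their arrays are not those of the comparisons with wild type. Of 42 members 7 were called, against 14.8% of all genes. All 7 were lower in the double knockout, against 8.06% of all genes, and none was higher, against 6.72%. Cyp1a1 stood at -3.79 and -4.12 (mean -3.95 ± 0.23, adjusted p = 0.00288). Whether the double knockout signal of Cyp1a1 was above background on these arrays is not known. Cyp1a2 stood at -2.32 and -1.57 (mean -1.95 ± 0.53, adjusted p = 0.00573). Both Cyp1a genes were thus lower in each direct experiment, and the Cyp1a2 call was lost without experiment 7. Cyp2f2 stood at -2.95 and -1.30 (adjusted p = 0.0277), a call that was lost without experiment 1, 4 or 7. Cyp2c55 stood at -0.84 and -1.51 (adjusted p = 0.045). Cyp2j6, Cyp2j11 and Cyp2r1 were lower by less than 2-fold, with adjusted p of 0.0425, 0.0241 and 0.0403, and the calls of Cyp2c55 and Cyp2r1 were each lost in 6 of the 8 fits that left out 1 experiment. Of these members only Cyp1a1 kept its call when the fit held experiments 7 and 8 alone.

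The direct experiments disagreed in sign for some members. For 16 of 42 members (38.1%, against 28.2% of all genes) experiments 7 and 8 had opposite signs. Cyp2c37 stood at -1.38 in experiment 7 and at 1.24 in experiment 8, and Cyp2c54 at -1.16 and 1.19. The median member was at -0.30 in experiment 7 and at 0.33 in experiment 8, beside medians of -0.01 and 0.03 over all genes. Albumin stood at -0.87 and 0.47 in these experiments, and the macrophage marker Cd14 at 2.88 and -0.06. The hepatocyte markers Ttr (-0.265 and 0.756) and Fabp1 (-0.421 and 0.426) also changed sign. Apoa1 (0.2 and 0.752) and Cps1 (0.558 and 0.902) did not. Of the other macrophage markers, Adgre1 (0.674 and -0.172), Cd68 (0.419 and -0.352) and Csf1r (0.656 and -0.092) changed sign. Marco (1.875 and 1.003) and Clec4f (-0.124 and -0.192) did not. Atg7 itself stood at -0.03 and 1.03, although both partners lack it per the labels. The part of these in the members' values was not tested. Cyp2s1, an extrahepatic form, stood at -0.99 and -2.46 (adjusted p = 0.0696), and Cyp2g1, best known from olfactory tissue, at -2.66 and -0.85 (adjusted p = 0.0941). Neither passed. Cyp1b1, the extrahepatic Ahr target, and Cyp2w1 were near background and passed in no comparison. The sex-linked set of experiments 7 and 8 could not be read, since both channels of a ratio carry it.

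The sets differed in the level of many members already in wild type. For 28 of 42 members the 3 wild-type signals of experiments 4 to 6 did not overlap those of experiments 1 to 3, against 40.8% of all genes, and for 7 the difference was at least 2-fold, against 1.22%. No test was made, since the labels do not say whether the wild-type RNA of a set was 1 sample. Cyp2b9 had log2 signals of 8.83, 8.77 and 8.64 in experiments 1 to 3 and of 13.02, 13.54 and 13.50 in experiments 4 to 6, a 24.3-fold difference. Cyp2b13, its female-typical neighbour, was 20.2-fold brighter in experiments 4 to 6, at 11.96 ± 0.03 (SD, n = 3) against 7.63 ± 0.13. Cyp2b10, the classical phenobarbital-inducible gene, was 4.60-fold brighter there, Cyp2c38 3.83-fold, Cyp2c40 2.97-fold and Cyp2c39 2.84-fold. Cyp2u1, a fatty acid hydroxylase, was the only one of the 7 that was brighter in experiments 1 to 3, by 2.15-fold. Cyp2d9 was 1.73-fold brighter there. The female-typical Cyp3a16, Cyp3a41a and Cyp3a44 were brighter in experiments 4 to 6 by 0.88, 0.80 and 0.89, and of these only Cyp3a44 overlapped between the sets.

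**Figure D3:**
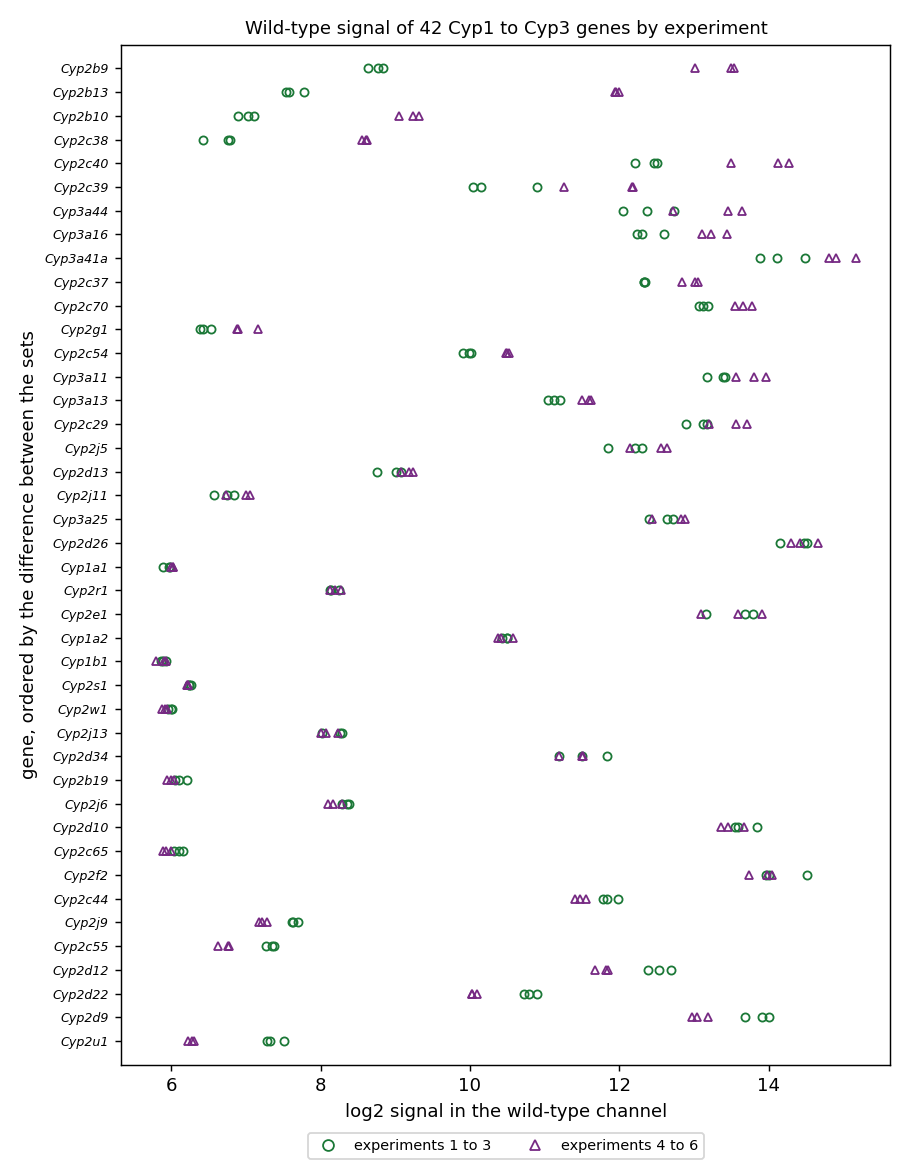
Log2 signal in the wild-type channel of experiments 1 to 6 for the 42 members, ordered by the difference between the sets; levels are not comparable between genes. At the top, Cyp2b9, Cyp2b13, Cyp2b10 and Cyp2c38 are brighter in experiments 4 to 6 (triangles) without overlap, and at the bottom Cyp2u1 and Cyp2d9 are brighter in experiments 1 to 3 (circles).

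In the livers without Atg7 the ratios of the female-typical members were lower in the set in which wild type was brighter. These ratios are taken over wild type and so carry its difference between the sets. Cyp2b9 stood at a ratio of 0.68 in experiment 2 and -3.65 in experiment 5 in Atg7 cKO, and at -0.14 in experiment 3 and -2.96 in experiment 6 in the double knockout. The values of the sets lay far apart, and neither mean passed (-1.49 ± 3.06, adjusted p = 0.357, and -1.55 ± 1.99, adjusted p = 0.352). Its channel signal in Atg7 cKO was 9.45 in experiment 2 and 9.88 in experiment 5, so the sets differed by 0.43 there and by 4.60 in wild type. The double knockout signals were 8.50 and 10.54, and in Nrf2 KO 10.32 and 13.19. Cyp2b13, whose promoter differs from that of Cyp2b9 at the bases shown above, ran beside it, at ratios of 0.56 and -3.27 in Atg7 cKO and of -0.05 and -2.80 in the double knockout (adjusted p = 0.349 and 0.338). Its probe may also read Cyp2b9. A dimmer Cyp2b13 probe that lists no other gene stood at -0.01 and -3.92 in Atg7 cKO. In the double knockout that probe stood at -0.11 and -4.02. Cyp2b10 stood at 0.45 and -2.02 in Atg7 cKO and at -0.12 and -2.17 in the double knockout (adjusted p = 0.419 and 0.262). Cyp2c38 stood at -0.02 and -2.15 in Atg7 cKO and at 0.07 and -1.73 in the double knockout (adjusted p = 0.218 and 0.344). The difference between the sets in Atg7 cKO was -0.34 for Cyp2b10, -0.31 for Cyp2c38 and -0.08 for Cyp2c40, beside gaps of 2.20, 1.94 and 1.57 in wild type. Elsewhere the sets lay apart. Cyp2c39 differed between the sets by 0.58 in Atg7 cKO and by 1.93 for the double knockout, beside 1.51 in wild type, and Cyp2b13 by 1.66 for the double knockout. Of the 7 measured female-biased members, 3 fell in Atg7 cKO (Cyp2c40, Cyp3a16 and Cyp3a44) and none passed in the double knockout. The difference between the sets was not tested. Sex, animal and, within each knockout genotype, slide cannot be told apart in it.

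**Figure D4:**
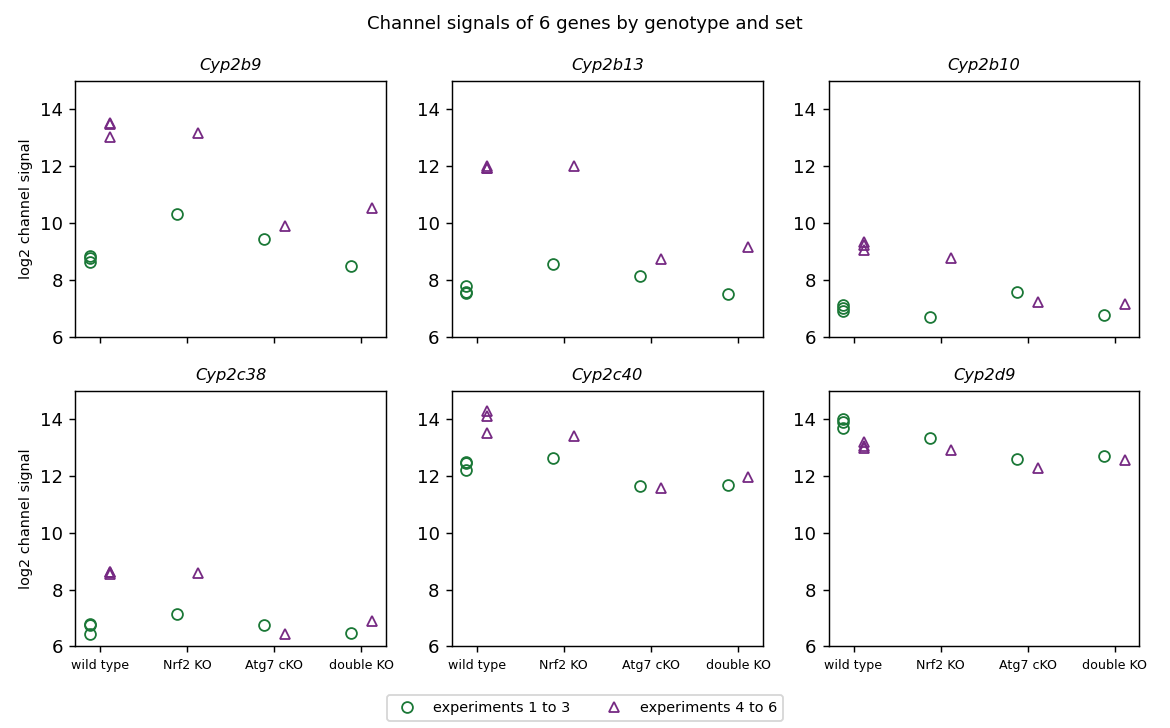
Log2 channel signals of 6 members by genotype; circles are experiments 1 to 3 and triangles experiments 4 to 6, with 3 wild-type values and 1 knockout value per set. Cyp2b9, Cyp2b13, Cyp2b10, Cyp2c38 and Cyp2c40 are brighter in experiments 4 to 6 in wild type and Nrf2 KO, and in Atg7 cKO the sets differ by 0.60 (Cyp2b13) or less, while Cyp2d9 is brighter in experiments 1 to 3 in wild type.

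The partners and regulators of the P450 system were read from fixed lists. For scale, 39.4% of the 16685 tested genes passed in the Atg7 cKO comparison, 16.2% lower and 23.2% higher. The double knockout comparison had 37.1%, with 15.9% lower and 21.2% higher. Whether the counts of any list depart from these shares was not tested. Of 6 electron transfer partners, 3 fell in Atg7 cKO, 5 fell in the double knockout, and none rose in either. Por, the common reductase, was at 0.29 and 0.10 in those comparisons and passed in neither. Cyb5b, the outer mitochondrial cytochrome b5, fell by 1.36 in Atg7 cKO (adjusted p = 0.00234) and by 1.69 in the double knockout (adjusted p = 0.00135). Cyb5a fell by 1.09 in the double knockout (adjusted p = 0.00698). Pgrmc1, a haem-binding partner of P450 enzymes, stood at 0.55 and 0.12 in Atg7 cKO and at -1.48 and -1.38 in the double knockout (adjusted p = 0.00119). It was also lower in the direct experiments, at -2.12 and -1.68 (adjusted p = 0.00288). Of 8 genes of haem synthesis, 1 rose and 4 fell in each comparison. The riser was Alas1, the rate-limiting step, at 1.12 (adjusted p = 0.0117) in Atg7 cKO and, with Nrf2 missing too, at 0.81 (adjusted p = 0.0319).

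Of 16 measured receptors and partners, 8 fell in Atg7 cKO, and 7 fell and 2 rose in the double knockout. Nr1i3 stood at -0.77 and -1.73 in Atg7 cKO (adjusted p = 0.0107) and at -1.69 and -1.80 in the double knockout (adjusted p = 0.00409). Cebpa, a hepatocyte transcription factor, fell by 1.21 in the double knockout (adjusted p = 0.00186). Ahr was at 0.34 and 0.36 and Nr1i2 at -0.04 and 0.22, and neither passed in those comparisons. Among 6 measured Ahr targets outside the P450 genes, 2 rose and 1 fell in Atg7 cKO, and 3 rose and 3 fell in the double knockout. Nqo1, a quinone reductase that is a target of Nrf2 as well as of Ahr, stood at 2.36 and 2.11 in Atg7 cKO (adjusted p = 0.00149). It was at -3.82 and -3.80 in the direct comparison (adjusted p = 0.00113). The other Ahr targets called at 2-fold or more were Lgals3, which rose in both genotypes (2.32 and 2.26), Inmt, which fell in both (-2.21 and -2.43), and Ugt1a6b, which fell in the double knockout (-1.48). The part of Ahr in these values was not tested, nor was that of the cell types whose markers rose.

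Among 11 measured Nr1i2 and Nr1i3 targets outside the P450 genes, 7 rose and 3 fell in Atg7 cKO, and 1 rose and 6 fell in the double knockout. The glutathione transferases Gsta2, Gstm1 and Gstm3, also known Nrf2 targets and members of families of close paralogs, rose by 3.07, 2.92 and 3.20 in Atg7 cKO, and in the direct comparison they stood at -4.03, -4.26 and -3.62. The transporters Abcc3 and Abcc2 were lower in the direct comparison as well, at -2.56 and -1.15. Ugt1a1, which conjugates bilirubin, fell by 1.16 in Atg7 cKO and by 1.38 in the double knockout, and Ces2a and Slco1a4 fell by 1.15 and 1.06 in the double knockout.

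Of 13 growth hormone and sex-bias regulators, 5 fell and 1 rose in Atg7 cKO, and 4 fell and 1 rose in the double knockout. The shares called over the 16685 tested genes were 39.4% and 37.1%, and these counts were not tested against them. Ghr, the growth hormone receptor, stood at -1.81 and -2.43 in Atg7 cKO (adjusted p = 0.00238) and at -1.98 and -1.20 in the double knockout (adjusted p = 0.00525). Igf1, its secreted target, fell by 1.67 in Atg7 cKO (adjusted p = 0.00249) and by 0.91 in the double knockout. Socs2, a feedback inhibitor of the receptor, fell by 1.26 in Atg7 cKO (adjusted p = 0.0408). Onecut1, a hepatocyte factor of female-typical Cyp2c expression, fell by 1.23 (adjusted p = 0.00142) and 1.09 (adjusted p = 0.00171). These 4 genes were named for being called at 2-fold or more in Atg7 cKO. Jak2 was the riser in both comparisons, at 0.19 and 0.56. The female-biased Cyp2c40, Cyp3a16, Cyp3a41a and Cyp3a44 were below 0 in both Atg7 cKO experiments, as were 39% of all genes. By their brightest probes Cyp2b9, Cyp2b10 and Cyp2b13 were above 0 in experiment 2 and below 0 in experiment 5. The part of these regulators in the members' values was not tested.

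Probes of 1 gene mostly had means of the same sign but differed in size. Of the 13 members with several kept probes, all 13 had probes of the same sign in Nrf2 KO and likewise in the double knockout, 12 in Atg7 cKO and 11 in the direct comparison. In that order of comparisons, Nrf2 KO, the double knockout, Atg7 cKO and the direct one, the median gap between probes was 0.101, 0.341, 0.295 and 0.158. The largest gap was that of Cyp3a44 in all 4 comparisons, at 0.418, 0.919, 1.186 and 2.214.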

How the data were processed

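RNA of mouse livers was compared on 16 2-colour Agilent arrays in 8 dye-swapped experiments. Per the file headers, the deposited scanner files of experiments 1 to 6 hold mean signal and median local background as intensity, from Agilent Feature Extraction 9.5.1.1, with probe positions on mm9. Per the file headers, the deposited value table holds log10 ratios of processed Cy5 over Cy3. For 12 of its columns a scanner file was read, whose log10 ratio differed by less than 0.005, and all 16 columns had a median of 0. Experiments 7 and 8 were read from it and multiplied to log2. No per-sample column was left unused.

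Intensities were corrected with normexp (offset 50) and normalised by loess within arrays in limma 3.58.1 (R 4.3.3). Ratios were turned to knockout over partner, spots of a probe and dye swaps were averaged, and control spots and outlier flags were left out. A limma fit with 3 group means (experiments 1 to 6, 3 residual and 2.2 prior degrees of freedom) gave the comparisons with wild type, the interaction, and the difference of Atg7 cKO from the double knockout by way of wild type. A second fit over experiments 1 to 8 of the deposited ratios (4 and 2.14 degrees of freedom) gave the direct comparison. P-values were adjusted by Benjamini-Hochberg over 16685 genes, threshold 0.05, and the fit was tested on simulated data. Channel signals were scaled with Aquantile. Alternatives were the deposited ratios, other offsets, centring, probe filters, blocks for slide and set, single arrays, and fits without each experiment. The number of arrays limits the precision. The offset shrinks ratios of dim genes.

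Named members were the brightest of each subfamily, those past the threshold with a log2 ratio of at least 1 in size in any comparison, and a list of sex-biased members. Others were named where a count or a probe disagreement called for them, after their values were seen. The members and lists were chosen with earlier results of these data known. Non-member symbols were updated from RefSeq accessions (24844 of 41174 probes by accession, 6045 by symbol, 10285 unchanged).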

Additional observations from a re-analysis of the deposited data

Results flagged for a closer look

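For Cyp1a2 the response to loss of Atg7 differed with and without Nrf2 at the threshold: the interaction was -1.86 on the log2 scale (adjusted p = 0.0481, limma), at 0.68 and 0.19 in Atg7 cKO and -1.68 and -1.46 in the double knockout. The call was lost in 10 of 16 alternatives, among them 5 of 6 fits without single experiments.

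For 4 members, each read by its brightest probe, the experiments of the sex-linked sets went opposite ways within a comparison. They did so on both arrays of each dye swap and differed by at least 1 on the log2 scale. In Atg7 cKO, experiment 5 minus experiment 2 was -4.33 for Cyp2b9, -3.83 for Cyp2b13 and -2.48 for Cyp2b10. In the double knockout, experiment 6 minus experiment 3 was -1.80 for Cyp2c38. Second probes that list no other gene did not all go opposite ways. That of Cyp2b13 stood at -0.01 in experiment 2 and -3.92 in experiment 5, and that of Cyp2b9 at 0.07 and -2.73. That of Cyp2c38 stood at 0.06 in experiment 3 and -0.75 in experiment 6. These differences were not tested, with 1 experiment of each set in a comparison and the experiments of a comparison on different slides. The 6 wild-type signals of each of 32 named members were also screened for a single experiment far from the others, which chance gives in about 1 of 20 groups, and 0 were found. For members whose wild-type signals parted by set, a single experiment has little room to stand out, so the 0 says little there.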

How the results depend on the processing

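None of the 43 calls of named members reversed under an alternative. Apart from fits that left out an experiment, 382 of their alternatives kept the call, 31 lost it, and 28 of the 43 calls were kept in all. When single experiments were left out, 208 fits kept and 60 lost the call. Of named members called, 10 of 20 kept their call without each experiment in turn in Atg7 cKO, 10 of 16 did for the double knockout and 1 of 5 in the direct comparison. The median of all genes moved with median centring, to 0.21 in Atg7 cKO and to 0.14 for the double knockout. The cause of these changes was not tested.

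The members' median in Nrf2 KO moved from -0.016 to -0.043 with the deposited ratios, -0.036 with no offset, 0.015 with median centring, -0.052 with probes detected on at least 12 channels and -0.103 with the slide as a block. It ranged from -0.038 to -0.016 when experiments were left out. The median in Atg7 cKO was -0.548 with median centring, and -0.967 to -0.651 without single experiments, where the members called ranged from 14 (without experiment 5) to 26. The median in the double knockout ranged from -0.892 to -0.366 (without experiment 6). The interaction called 0 members with the deposited ratios, 0 with no offset, 0 with median centring, 0 with no filter on dim probes, 0 with the slide as a block, 5 with single arrays and a dye effect, and 0 to 1 without single experiments. By way of wild type, 2 members differed with no offset, 3 with the set as a block, 8 with single arrays and 0 to 3 without single experiments. The direct comparison called 3 members with no filter on dim probes, 1 with experiments 7 and 8 alone, 11 with single arrays and 1 to 6 without single experiments. The counts over all 16685 genes moved as well. In the interaction 120 genes were called above, and 6 with the deposited ratios, 12 with no offset and 64 with median centring. Single arrays called 1208 there. By way of wild type 828 were called above, 378 with no offset, 1424 with the set as a block and 2487 with single arrays. Leaving out the members whose probe lists another gene left 20 members called in Atg7 cKO, and 18 for the double knockout. That alternative was chosen after seeing the data. Replicate numbers are those of the experiments and pair nothing, but each sex-linked set holds 1 experiment of each comparison with wild type, and the fit with the set as a block pairs them. Signal over background limits Cyp1a1, Cyp1b1, Cyp2b19, Cyp2c65 and Cyp2w1.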
